A study of Mus musculus with 2 samples.

Results

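The Nkx homeobox genes described here are Nkx2-1, Nkx2-2, Nkx2-3, Nkx2-4, Nkx2-5, Nkx2-6, Nkx2-9, Nkx3-2, Nkx6-1 and Nkx6-2. They were taken by symbol from the GENCODE M21 annotation of the mouse genome (mm10), where 21728 protein-coding genes were placed on the autosomes and X, and these are 10 of them. Their chromatin was measured by DNase-seq, in which the enzyme DNase I cuts DNA that nucleosomes do not cover and the cut ends are sequenced. The samples are whole mouse embryos of 11 days from the B6NCrl strain, male and female pooled, with no treatment and no altered allele named in the labels. They form 1 group of 2 biological replicates, which have separate biosample entries and the same donor entry, so any spread between them is that of 2 libraries and no test between conditions was possible. A whole embryo mixes every tissue, so a site open in few cells and a site weakly open in many cells cannot be told apart, and the cells in which a site was open are not known from these files.

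Nkx proteins are transcription factors that bind DNA through a homeodomain and give regional identity to cells of the early embryo. In the ventral neural tube, hedgehog signalling from the floor plate and notochord, carried into the nucleus by Gli factors, sets up domains of Nkx2-2, Nkx2-9, Nkx6-1 and Nkx6-2 from which motor neurons and interneurons arise. Nkx2-1 is needed for the thyroid, lung and ventral forebrain, Nkx2-5 and Nkx2-6 act in the heart and pharynx, Nkx2-3 in the gut wall and spleen, and Nkx3-2 in the sclerotome and its cartilage.

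For each gene, every deposited peak was assigned to the territory that held its midpoint, that is, to the gene whose 5'-most transcription start site (TSS) was closest among all protein-coding genes. A peak is a 150 bp interval of concentrated cutting and a hotspot a broader interval of enriched cutting, each called by the authors in 1 replicate. A peak is called shared here when both replicates had one there (1 bp or more in common), and distal when no protein-coding TSS was within 1 kb of it. Peak scores are the authors' own, on a scale from 1 to 150, and rank peaks only within 1 list. Over all shared peaks the median score was 51 in replicate 1 and 61 in replicate 2. A raw difference between the lists is therefore not read as one of the site. Replicate 1 had 204697 peaks and 179603 hotspots over the genome, and replicate 2 had 231103 and 197152, 1.13 times as many peaks. The read depth of the libraries is unknown. The 10 territories cover 1339 kb and held 189 peaks of replicate 1 and 291 of replicate 2, 1.54 times as many. Of the peaks in these territories, 152 of replicate 1 were shared, or 80.4%, beside 79.5% of all peaks of that list. For replicate 2, 152 were shared, or 52.2%, beside 70.3% of all its peaks. The gap between the replicates was therefore wider around these genes than over the list as a whole, and it was concentrated at a few of them, as described after the sequences.

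The best-ranked distal peaks found in both replicates are shown first, since they are the open sites outside the promoters that both libraries support most highly. Rank is the mean of a peak's rank in each list. The first 4 sequences (mm10, plus strand, 150 bp each) have CG dinucleotides in capitals, because high CG content recurs in the shared peaks of these genes. The peak of Nkx2-2 (chr2:147178896-147179045) lies in an intron at +15.3 kb from the 5'-most TSS, counted downstream, and scored 94 in replicate 1 and 101 in replicate 2. That of Nkx2-3 (chr19:43616456-43616605) lies at +4.21 kb, just past the 3' end of the gene, and scored 114 in both. That of Nkx6-1 (chr5:101663336-101663485) lies in an intron at +1.59 kb and scored 112 and 123. It lies within a stretch under hotspots of both replicates that also spans the TSS. That of Nkx6-2 (chr7:139528836-139528985) lies at +53.9 kb in an intron of the neighbouring Inpp5a, a phosphatase of inositol phosphates, and scored 118 and 119.
Nkx2-2, +15.3 kb, 11 CG: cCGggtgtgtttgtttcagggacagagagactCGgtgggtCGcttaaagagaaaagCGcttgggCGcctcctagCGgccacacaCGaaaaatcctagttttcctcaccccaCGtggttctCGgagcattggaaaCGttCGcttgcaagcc
Nkx2-3, +4.21 kb, 13 CG: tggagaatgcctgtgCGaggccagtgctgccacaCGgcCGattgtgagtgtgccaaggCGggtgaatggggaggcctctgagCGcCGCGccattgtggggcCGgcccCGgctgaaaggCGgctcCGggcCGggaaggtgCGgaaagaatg
Nkx6-1, +1.59 kb, 14 CG: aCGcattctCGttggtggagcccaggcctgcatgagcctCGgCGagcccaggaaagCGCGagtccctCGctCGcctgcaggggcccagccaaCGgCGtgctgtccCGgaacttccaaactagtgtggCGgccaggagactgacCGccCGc
Nkx6-2, +53.9 kb, 4 CG: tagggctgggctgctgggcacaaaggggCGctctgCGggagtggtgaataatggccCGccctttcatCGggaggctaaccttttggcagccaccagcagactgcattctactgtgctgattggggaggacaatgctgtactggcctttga
The peaks of Nkx2-2, Nkx2-3 and Nkx6-1 hold 11 to 14 CG, while the median shared distal peak of the genome holds 2. The peak of Nkx6-2, far from its start and inside another gene, holds 4.

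The next 3 peaks are shown because they hold letters bound by Gli factors, which carry the hedgehog signal that Nkx2-2, Nkx2-9 and Nkx3-2 are known to answer to. Capitals mark TGGGTGG or its reverse complement and, where it continues, the longer TGGGTGGTC. The peak of Nkx2-2 (chr2:147188176-147188325) is the shared peak nearest to any of its starts, at +5.99 kb from the 5'-most TSS and 1772 bp upstream of the TSS at 147186404, and scored 89 and 95. It lies in an intron of the longest Nkx2-2 transcript and also within the antisense gene Nkx2-2os. The peak of Nkx2-9 (chr12:56614636-56614785) lies between genes at -1.43 kb and scored 85 and 101. The peak of Nkx3-2 (chr5:41768496-41768645) lies between genes at -4.07 kb and scored 104 and 114.
Nkx2-2, +5.99 kb: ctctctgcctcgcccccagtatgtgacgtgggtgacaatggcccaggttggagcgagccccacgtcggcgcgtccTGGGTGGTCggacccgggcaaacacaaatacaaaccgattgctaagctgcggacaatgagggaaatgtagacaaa
Nkx2-9, -1.43 kb: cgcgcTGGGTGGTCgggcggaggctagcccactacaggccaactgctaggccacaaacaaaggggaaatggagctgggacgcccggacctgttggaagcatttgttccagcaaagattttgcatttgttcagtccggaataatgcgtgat
Nkx3-2, -4.07 kb: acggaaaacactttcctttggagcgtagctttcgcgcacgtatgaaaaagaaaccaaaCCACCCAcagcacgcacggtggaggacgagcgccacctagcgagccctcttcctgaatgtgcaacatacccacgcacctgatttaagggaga
The same 9 letters stand in the Nkx2-2 and the Nkx2-9 peak, and the 7 letters of the Nkx3-2 peak are on the opposite strand. A match is a description of the letters and not evidence of binding.

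The last pair shows sequence that was open in replicate 2 and had no peak in replicate 1, with CG in capitals again. They are the highest-scoring such peaks of Nkx2-2 (chr2:147187316-147187465, an intron at +6.85 kb, score 90) and Nkx2-3 (chr19:43614296-43614445, a coding exon at +2.05 kb, score 89).
Nkx2-2, +6.85 kb, replicate 2 only, 8 CG: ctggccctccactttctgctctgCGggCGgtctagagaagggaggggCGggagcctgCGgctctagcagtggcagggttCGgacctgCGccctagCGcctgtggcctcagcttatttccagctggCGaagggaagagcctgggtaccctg
Nkx2-3, +2.05 kb, replicate 2 only, 14 CG: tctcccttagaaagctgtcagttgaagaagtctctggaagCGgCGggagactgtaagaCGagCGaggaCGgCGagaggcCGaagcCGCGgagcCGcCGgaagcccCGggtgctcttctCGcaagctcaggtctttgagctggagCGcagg
Both are rich in CG and lie inside the gene. They are the highest-scoring of their class, and the median peak of replicate 2 alone held 5.5 CG at Nkx2-2 and 4 at Nkx2-3. The shared peaks of that list had medians of 8 and 6.5.

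Of the 10 genes, 8 had a peak within 500 bp of an annotated TSS in both replicates. Over all 21728 genes the share was 70.3%, so 8 of 10 is close to the background. The exceptions were Nkx2-2, with such a peak in replicate 2 alone, and Nkx2-6, with none in either. Promoters with many CG dinucleotides usually have a peak in these lists, and the comparison is closer within that class. When promoters were sorted into 10 equal classes by observed over expected CG, Nkx2-2 fell in class 6, where 96.0% of genes had a peak in both replicates, and Nkx2-6 in class 4, where 58.2% did. The other 8 genes lay in classes 5 to 10.

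The promoter peaks themselves ranged widely in score. At Nkx6-2, a repressor of the ventral neural tube, the peak over the TSS scored 116 in replicate 1 and 120 in replicate 2. At Nkx2-3 the peak over the TSS scored 114 and 108. No other Nkx gene had a peak over its 5'-most TSS that scored as high in either replicate. At Nkx3-2 the nearest peak scored 95 and 107. At Nkx6-1 the nearest scored 78 and 94, beside one of 133 and 142 at -0.414 kb. At Nkx2-4, a close relative of Nkx2-1 in the ventral forebrain, the peak over the TSS scored 66 and 84. The nearest peak of Nkx2-5 to its 5'-most TSS was 304 bp away in replicate 1 and 284 bp in replicate 2, and scored 62 and 81. Nkx2-1 had 45 and 67 at its 5'-most TSS. The nearest peak of Nkx2-9 scored 38 in replicate 1 and 48 in replicate 2. These were the lowest of the genes with a promoter peak in both replicates. They were different sites, since the replicate 2 peak had no partner and the replicate 1 peak was shared with one that scored 42. For Nkx2-6 the nearest peak lay 1737 bp from the TSS in replicate 1 and 1757 bp in replicate 2, with scores of 52 and 65.

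**Figure D1:**
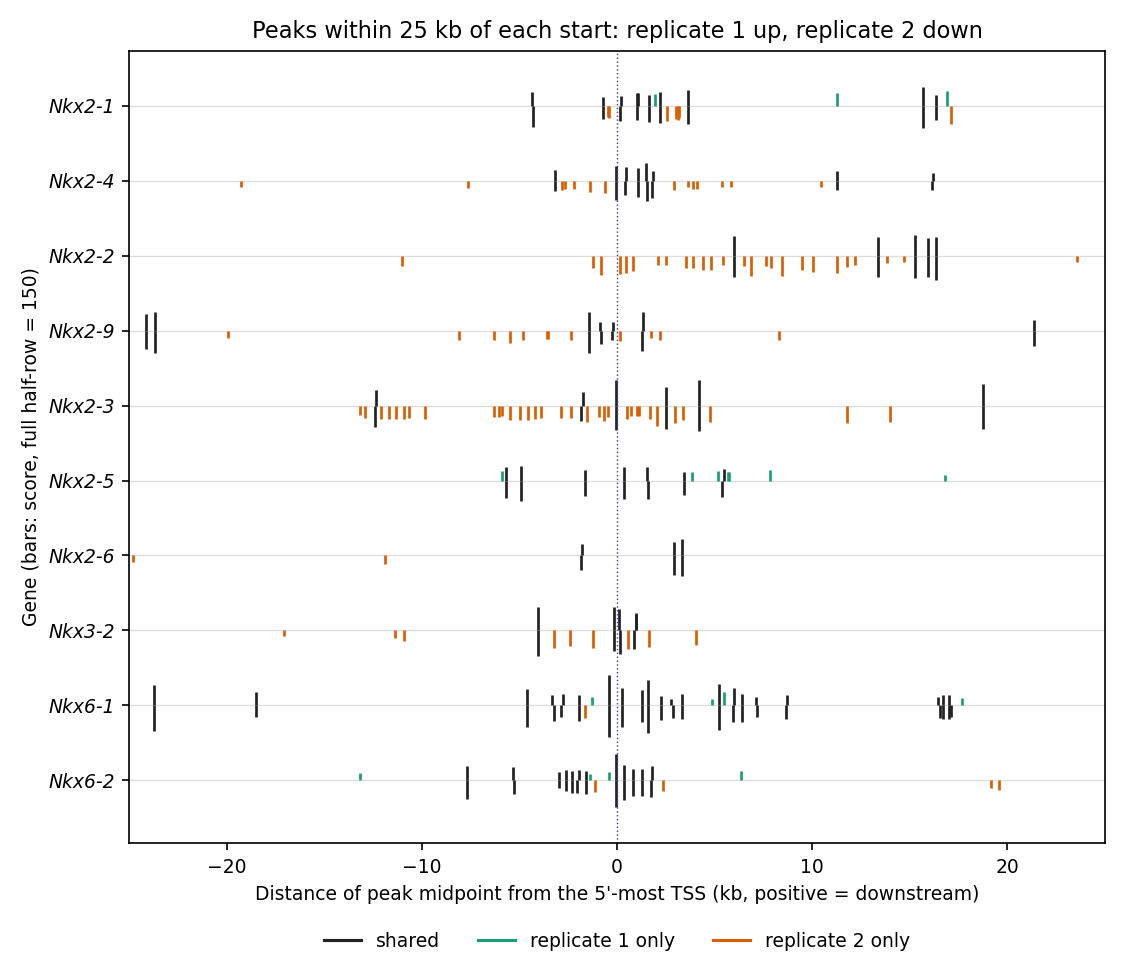
Peaks within 25 kb of the 5'-most TSS of each Nkx gene, with distance in kb on the x axis and positive values downstream. Bars above a line are replicate 1 and bars below it replicate 2, their height is the deposited score, and color separates shared peaks (black) from peaks of 1 replicate (green, orange); the orange bars crowd around the starts of Nkx2-2 and Nkx2-3 and the green bars around Nkx2-5.

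The neural tube genes Nkx2-2 and Nkx2-9 and the forebrain genes Nkx2-1 and Nkx2-4 lie in pairs beside Pax genes. Nkx2-4 and Nkx2-2 stand 108.8 kb apart on chromosome 2, followed by Pax1 at 167.7 kb from Nkx2-2. Nkx2-1 and Nkx2-9 stand 76.4 kb apart on chromosome 12, followed by Pax9 at 78.5 kb from Nkx2-9. Pax1 and Pax9 act with Nkx3-2 in the sclerotome. The forkhead genes Foxa2 and Foxa1, known from floor plate and endoderm, lie farther along these chromosomes, at 852.7 kb from Nkx2-2 and 1010 kb from Nkx2-1.

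Nkx2-2 (chr2:147177546-147194243, minus strand) gave the highest ratio of replicate 2 to replicate 1 peaks of the 10 genes. Its 138.2 kb territory held 9 peaks in replicate 1 and 37 in replicate 2, and all 9 of replicate 1 were shared. Replicate 2 had 28 peaks without a partner, of which 25 lay within 20 kb of the TSS and none overlapped a hotspot of replicate 1. The gene body held 5 peaks in replicate 1 and 27 in replicate 2. In replicate 1 no peak lay in the 38.5 kb between -32.5 and +5.99 kb, a stretch that contains the 5'-most TSS. In replicate 2 the same TSS had a peak at 58 bp with a score of 82, and a chain of 15 peaks no more than 1 kb apart ran from +2.09 to +10.1 kb. The TSS at 147186404 followed the same pattern, with the nearest peak 1772 bp away in replicate 1 and overlapping the TSS in replicate 2, where it scored 55. Hotspots covered 2738 bp of the territory in replicate 1 and 17245 bp in replicate 2, and the widest of replicate 2 spanned 4349 bp within the gene. Besides the +5.99 kb peak and 4 upstream, the shared peaks formed a group at the 3' end, where 4 between +13.4 and +16.4 kb scored 79 to 94 in replicate 1 and 93 to 108 in replicate 2. The widest intersection of hotspots, 1497 bp (chr2:147177690-147179186), lay over 3 of these.

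Nkx2-4 (chr2:147083316-147085445, minus strand) had 9 peaks in replicate 1 and 23 in replicate 2 over 90.6 kb, with 8 shared. Its own body was alike in both, with 5 peaks each, and the shared peak at +1.495 kb scored 79 and 88. The peaks of replicate 2 alone lay on either side of the gene, 14 of 15 of them within 20 kb of the TSS, and their scores were low, with a median of 35. A pair of shared peaks at +11.3 and +16.2 kb lay in introns of Xrn2, a nuclear exonuclease. In replicate 2 a chain of 11 peaks ran from -3.21 to +1.80 kb across the start.

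Nkx2-9 (chr12:56611389-56613284, minus strand) had 9 peaks in replicate 1, all shared, and 21 in replicate 2 over 77.4 kb. All 12 peaks of replicate 2 alone lay within 20 kb of the TSS, and none overlapped a hotspot of replicate 1. Besides the -1.43 kb peak with the Gli letters, shared peaks at -24.1 and -23.7 kb scored 73 and 84 in replicate 1 and 83 and 98 in replicate 2, and formed the widest intersection of hotspots there (780 bp). No shared peak lay in the 22.3 kb between -23.7 and -1.43 kb.

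Nkx2-1 (chr12:56531958-56536908, minus strand) differed less between replicates than its neighbour, with 17 peaks in replicate 1, 22 in replicate 2 and 13 shared over 133.7 kb. The 13 shared peaks all had a higher raw score in replicate 2, as 83.8% of all shared peaks did, but not all stood at a higher percentile of that list. The best-ranked distal peak lay at +15.7 kb within the noncoding gene Sfta3-ps and scored 85 and 98. A group of 3 shared peaks stood apart at +77.3 to +79.3 kb, beyond 60.9 kb without a shared peak, and scored 52 to 72 in replicate 1 and 59 to 87 in replicate 2. The widest hotspot intersection of the territory (568 bp) lay in this group, not at the promoter.

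The landscape of Nkx6-1 (chr5:101658139-101664996, minus strand), a factor of ventral neural progenitors and of pancreatic beta cells, covered the largest territory, with similar peak counts in both replicates. Its territory of 459.7 kb held 76 peaks in replicate 1, 81 in replicate 2 and 60 shared, so 16 and 20 had no partner. Around the start, 20 shared peaks lay between -20 and +20 kb, and the peak at -0.414 kb scored 133 and 142, the highest of any Nkx gene in either replicate. The hotspots of both replicates intersected over 2832 bp across the TSS (chr5:101663032-101665863), the widest intersection in the 10 territories. Downstream came 56.5 kb with no shared peak, and then 18 shared peaks between +70 and +150 kb. Another 9 lay between +150 and +250 kb and 9 between +250 and +400 kb. The peaks with the highest replicate 1 score in these far groups scored 83 and 81 at +140.9 kb, 98 and 115 at +238.8 kb, and 106 and 127 at +299.4 kb. Upstream, toward Cds1, only 4 shared peaks lay beyond -20 kb, and the one at -23.7 kb scored 91 and 113. Of the 60 shared peaks 51 lay outside protein-coding genes. Assignment to Nkx6-1 is by distance alone, and the next gene on the downstream side, Gpat3, starts 819.3 kb away.

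**Figure D2:**
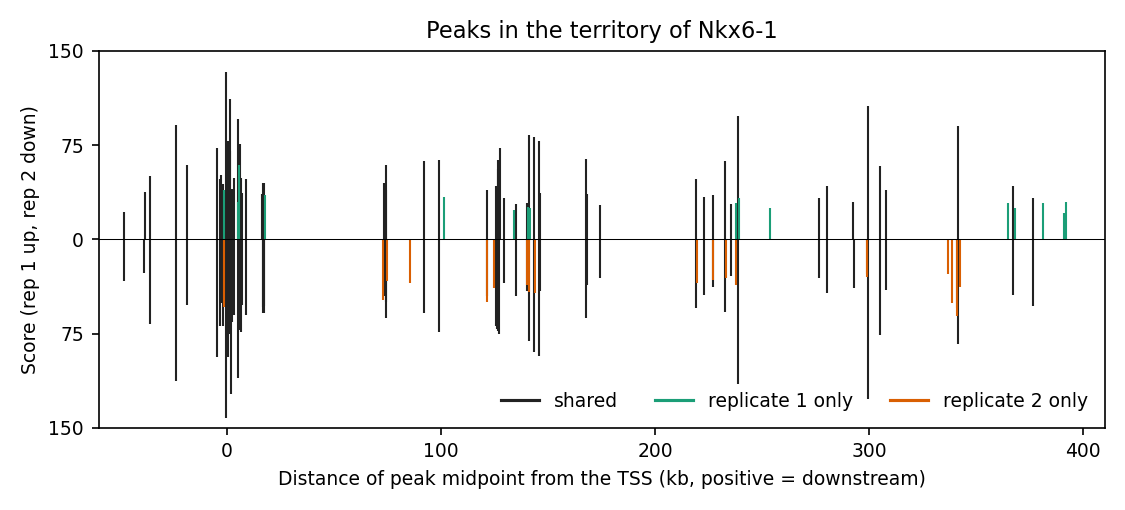
Every peak in the territory of Nkx6-1, with distance from its TSS in kb on the x axis (positive is downstream) and the deposited score on the y axis, replicate 1 upward and replicate 2 downward. Black lines are shared peaks and colored lines are peaks of 1 replicate; after the cluster at the start there is a stretch of 56.5 kb without shared peaks, and far groups follow out to +376.5 kb.

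Nkx6-2 (chr7:139579376-139582797, minus strand) also had similar counts in both replicates. It had 28 peaks in replicate 1, 31 in replicate 2 and 22 shared over 147.4 kb. Near the start, 5 shared peaks between -2.97 and -1.57 kb scored 39 to 46 in replicate 1 and 36 to 62 in replicate 2, well under the promoter peak. The other large group lay downstream in introns of Inpp5a, with 9 shared peaks between +25.5 and +89.6 kb. That group had a median of 3 CG per peak, against 14 in the 4 shared peaks of Nkx6-2's own exons.

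Nkx2-3 (chr19:43612325-43615892, plus strand) had the most peaks of replicate 2 alone. Over 75.1 kb there were 12 peaks in replicate 1 and 43 in replicate 2, with 10 shared. All 33 peaks of replicate 2 alone lay within 20 kb of the TSS and outside the hotspots of replicate 1, and their scores ran from 43 to 89. A chain of 19 peaks from -2.86 to +4.79 kb covered the gene in replicate 2, while replicate 1 had no more than 2 peaks so close together. The shared peaks were nonetheless high, with medians of 77.5 and 98. They included one at -41.1 kb (99 and 113) and one at +18.7 kb (97 and 106), as well as the promoter peak and the +4.21 kb peak described above.

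Nkx2-5 (chr17:26838664-26845009, minus strand), the early factor of heart muscle, was the reverse case. Its territory of 68.0 kb held 15 peaks in replicate 1 and 7 in replicate 2, and every peak of replicate 2 was shared. The 8 peaks of replicate 1 alone scored from 21 to 45, and 7 of them lay within 20 kb of the TSS. All 7 shared peaks still had a higher raw score in replicate 2, the list with fewer peaks here, as 83.8% of all shared peaks did. The best-ranked distal peak, at -4.94 kb, scored 65 and 92. No hotspot in this territory reached the ceiling of 100 for the deposited -log10 of the q value, in either replicate, and Nkx2-5 was alone among the 10 genes in this.

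Nkx2-6 (chr14:69171802-69175518, plus strand), which overlaps Nkx2-5 in the pharynx, had 9 peaks in replicate 1, all shared, and 13 in replicate 2 over 80.7 kb. Without a peak at its TSS, its nearest shared peaks were at -1.81 kb (52 and 65) and in its exons at +2.93 and +3.33 kb. The peak at +3.33 kb scored 73 and 92 and was its best-ranked. Between -30.5 and -25.2 kb, 3 shared peaks scored 63 to 66 in replicate 1 and 64 to 83 in replicate 2.

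Nkx3-2 (chr5:41761483-41764501, minus strand) had 5 peaks in replicate 1, the fewest of the 10 genes in that list and all shared, and 13 in replicate 2 over 68.1 kb. All of them lay within 20 kb of the TSS. In replicate 1, 4 peaks between -0.149 and +0.991 kb scored 75 to 103, and the only other one was the peak at -4.07 kb shown above. The 9 peaks of replicate 2 alone had a median score of 71, more than the median of 35 for all unshared peaks of that list.

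**Figure D3:**
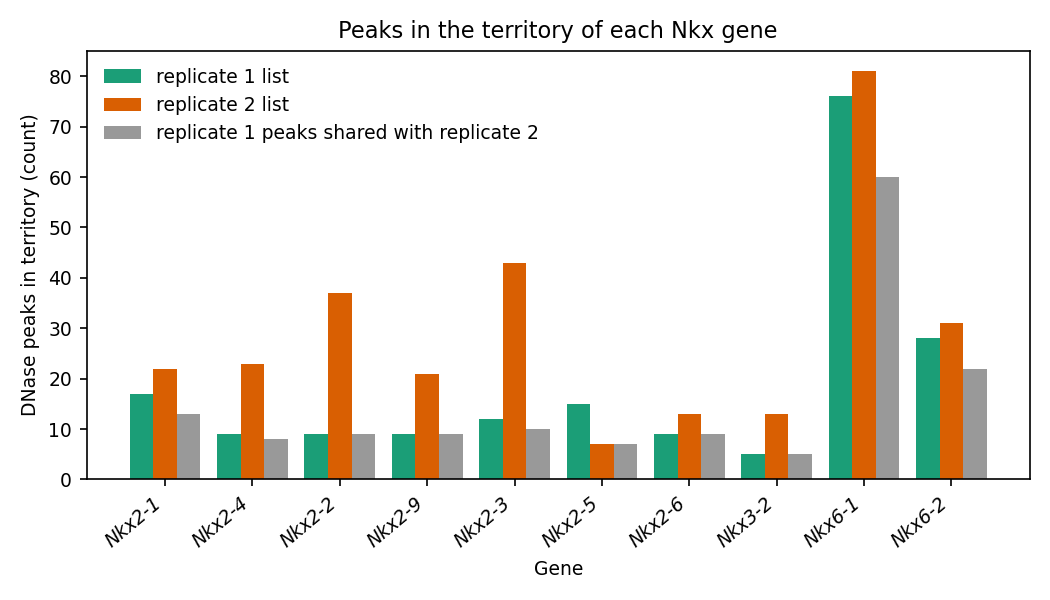
Number of DNase peaks (y axis) in the territory of each Nkx gene (x axis) in the replicate 1 list, the replicate 2 list and among replicate 1 peaks shared with replicate 2. Orange bars reach at least 2 times the green ones at Nkx2-4, Nkx2-2, Nkx2-9, Nkx2-3 and Nkx3-2, the order is reversed at Nkx2-5 (15 and 7), and the bars are close at Nkx6-1 (76 and 81).

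Set beside other territories, the gap between replicates was unusual in size. In 5 of the 10 territories replicate 2 had at least 2 times the peaks of replicate 1. The share was 3.17% of the 8519 territories with 15 or more peaks, counted over both lists together. In 1 of the 10, that of Nkx2-5, replicate 1 had at least 2 times the peaks of replicate 2, beside 0.364% of these territories. The filter of 15 peaks uses the same counts as the ratio, and Nkx3-2 (5 and 13 peaks) reached it in neither list alone. The ratio of replicate 2 to replicate 1 was 4.11 at Nkx2-2 and 3.58 at Nkx2-3, at the 99.9th and 99.8th percentile. It was 2.60 at Nkx3-2, 2.56 at Nkx2-4 and 2.33 at Nkx2-9, at percentiles 99.2, 99.3 and 98.9. At Nkx2-6, Nkx2-1, Nkx6-2 and Nkx6-1 the ratio was 1.44, 1.29, 1.11 and 1.07, at percentiles 84.8, 74.7, 49.2 and 41.7, beside a median of 1.11 for these territories. At Nkx2-5 it was 0.467, at percentile 0.211. Hotspot bases followed the peak counts, with ratios of 6.30 at Nkx2-2, 3.58 at Nkx2-3, 3.53 at Nkx3-2, 2.82 at Nkx2-9, 2.76 at Nkx2-4 and 0.719 at Nkx2-5. With only the better-scoring 50% of each list the count of 5 became 3. Nkx2-4 then had 5 and 7 peaks and Nkx2-9 had 6 and 8, while Nkx2-2 had 6 and 22 and Nkx2-3 had 8 and 35. Nkx2-5 had 7 and 7, so its reversed gap was not present among the better-scoring peaks. No share over all territories is given here for the better-scoring 50% or for hotspot bases, so these counts have no background beside them. Whether depth, library preparation or the embryos account for the gap was not tested.

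The peaks of replicate 2 alone lay mostly near the starts of the genes. The exceptions were Nkx6-1, Nkx6-2 and Nkx2-6, where 1 of 20, 4 of 9 and 1 of 4 lay within 20 kb. Of 139 such peaks, 106, or 76.3%, lay within 20 kb of the TSS, beside 36.7% of all unshared peaks of replicate 2 for the 5'-most TSS nearest to them. Of the 106, Nkx2-3 gave 33, Nkx2-2 gave 25 and Nkx2-4 gave 14. In all, 6 of the 139, or 4.32%, overlapped a hotspot of replicate 1, beside 11.2% of all unshared peaks of replicate 2. Their median score of 48 was above the median of 35 for all unshared peaks of the list. At Nkx2-2, Nkx2-3 and Nkx2-4 together there were 76, of which 72 lay within 20 kb and none in a hotspot of replicate 1, with a median score of 54.5 and a median of 5 CG. Chains of 10 or more peaks at most 1 kb apart occurred in replicate 2 at 4 genes, Nkx2-1, Nkx2-4, Nkx2-2 and Nkx2-3, beside 5.07% of territories with 15 or more peaks. In replicate 1 they occurred at Nkx6-1 (11 peaks) and Nkx6-2 (12 peaks), beside 2.82%. No Nkx gene had such a chain in both replicates.

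Distal peaks found in both replicates were more frequent around most of these genes than around the median gene. There were 128 over the 10 territories, at a median distance of 25.7 kb. Nkx6-1 gave 58 of them, 9 upstream and 49 downstream, and the other 9 genes gave 33 upstream and 37 downstream, at a median distance of 16.1 kb. Their median density was 8.20 per 100 kb of territory, beside 4.05 over all genes, and 9 of the 10 genes were above the median of all genes. The territories were also longer, with a median of 85.7 kb beside 47.2 kb over all genes, and no comparison at matched length is given. At least 10 per 100 kb were found at 4 of the 10, Nkx6-1, Nkx6-2, Nkx2-3 and Nkx2-6, beside 18.0% of all genes. With the better-scoring 50% of each list it was 0 of 10, beside 8.28% of all genes, and with distal peaks beyond 2500 bp 1 of 10, beside 12.7%. The density was 12.6 at Nkx6-1, 12.2 at Nkx6-2, 11.98 at Nkx2-3 and 11.2 at Nkx2-6, between percentiles 85.5 and 88.9 of all genes. It was 9.04 at Nkx2-9, 7.35 at Nkx2-5, 6.51 at Nkx2-2, 5.52 at Nkx2-4 and 5.24 at Nkx2-1. Nkx3-2, with 1 distal peak and 1.47 per 100 kb, stood at the bottom. Neighbours in this order mostly cannot be separated, because counting 1 replicate alone moved a gene by more than the steps between them. Nkx2-5, for example, had 17.6 by replicate 1 and 7.35 by replicate 2, and Nkx2-2 had 6.51 and 21.0. Hotspots present in both replicates covered a median of 3.12% of the territories, beside 2.82% over all genes. In replicate 2 alone the medians were 6.60% and 3.74%, and in replicate 1 alone 3.57% and 3.19%.

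**Figure D4:**
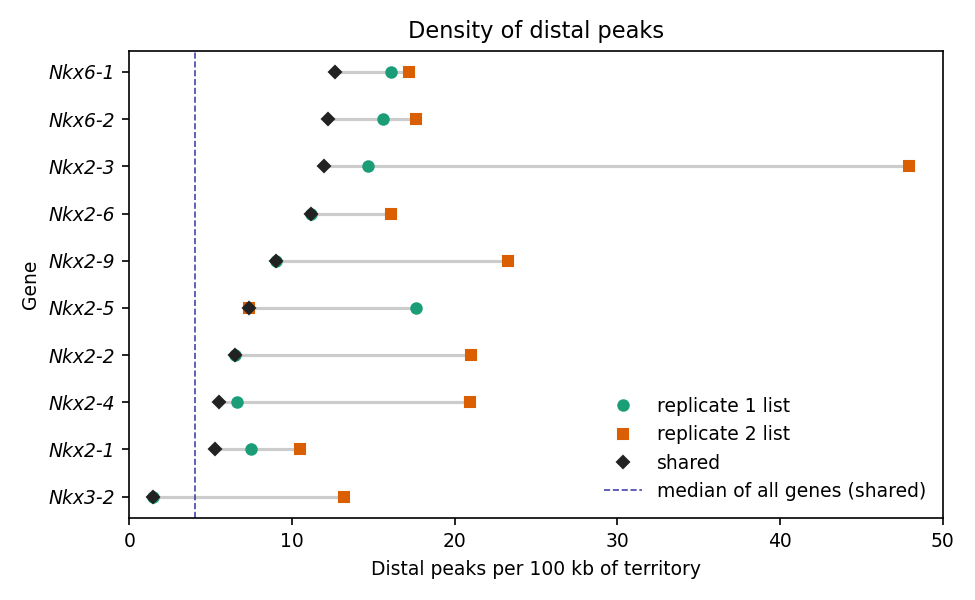
Distal peaks per 100 kb of territory (x axis) for each Nkx gene (y axis), counted in the replicate 1 list (circles), in the replicate 2 list (squares) and among shared peaks (diamonds). The dashed line is the median of all genes for shared peaks (4.05), and all genes but Nkx3-2 lie to its right; the squares stand far out at Nkx2-3 (47.9 per 100 kb).

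Scores of shared peaks ran in parallel between the replicates. Over the 152 shared peaks Spearman's rho was 0.912 and Pearson's r 0.920, as a description over peaks that share libraries and lie close together. Over all 162667 shared peaks rho was 0.939. The score was higher in replicate 2 in 130 of 152, or 85.5%, beside 83.8% of all shared peaks, so this shift is one of the whole list. Median scores were 56 and 69 at these genes and 51 and 61 over all shared peaks.

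In sequence, the shared distal peaks were richer in CG than those of the genome. They had a median of 5 CG and 53.3% G or C, beside 2 CG and 51.3% for all shared distal peaks of replicate 1. This comparison was not matched for distance from a TSS. With promoter peaks counted as well, the 80 shared peaks within 20 kb of the TSS had a median of 9 CG. The 72 beyond had 3. Of the 152 shared peaks, 25 lay in exons and 26 in introns of protein-coding genes. The other 101 lay outside protein-coding genes, some of them within noncoding genes.

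Matches to 14 motifs were counted on both strands in the 128 distal peaks and in all 124517 shared distal peaks, which are also 150 bp long. Of 4 forms of site that Nkx proteins bind, 3 had a lower share here than in the genome and 1 had nearly the same. CAAGTG, the NK2 site known from thyroid and lung genes, stood in 3 peaks, or 2.34% (Wilson 95% interval 0.800 to 6.66%), beside 9.17% of all. TNAAGTG, another NK2 form that takes in CAAGTG where it follows a T, stood in 7.81%, beside 7.79%. For NK6 proteins TAATTA, which many homeodomains bind, stood in 0.781% (0.138 to 4.29%), beside 3.36%. TTAATG stood in 5.47% (2.67 to 10.9%), beside 6.51%. Both intervals include the background share, so among the 4 forms only CAAGTG lay wholly below it. None of the best-ranked distal peaks of the 10 genes held any of these 4. With such background shares, 10 peaks are too few to read this as a lack. Intervals cover counting error only, and 58 of the 128 peaks come from Nkx6-1.

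The Gli letters TGGGTGG stood in 10 peaks, or 7.81% (4.30 to 13.8%), beside 4.37% of all, an interval that includes the background share. The longer TGGGTGGTC, which contains TGGGTGG, stood in the 2 peaks printed for Nkx2-2 and Nkx2-9, or 1.56%, beside 0.283% of all. It was added to the search after the Nkx2-9 sequence had been seen, so the count is a description only. The other 8 peaks with the shorter letters were 2 each at Nkx2-3 and Nkx6-1 and 1 each at Nkx2-1, Nkx2-6, Nkx3-2 and Nkx6-2.

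Among the remaining motifs, AGGTCA, a site of retinoic acid receptors, stood in 4.69% (2.17 to 9.85%), beside 12.8%. With CAAGTG it was the only motif whose interval lay wholly below the background. That background was not matched for CG content or distance from a TSS, and no allowance was made for the number of motifs counted. TGACAG, bound by Meis proteins, stood in 19.5%, beside 14.3%, and 16 of its 25 peaks were at Nkx6-1. TGTTTNC (Fox) stood in 16.4% beside 13.8%, CAGCTG (bHLH factors) in 14.8% beside 18.5%, and ACAATG (SoxB) in 9.38% beside 8.26%. The CTCF core stood in 6.25% beside 9.58% and the letters bound by Gata factors, AGATAA, in 1.56% beside 5.31%. AGGTGTNA (T-box) was in 0 peaks, with an upper bound of 2.91%, beside 1.57%.

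**Figure D5:**
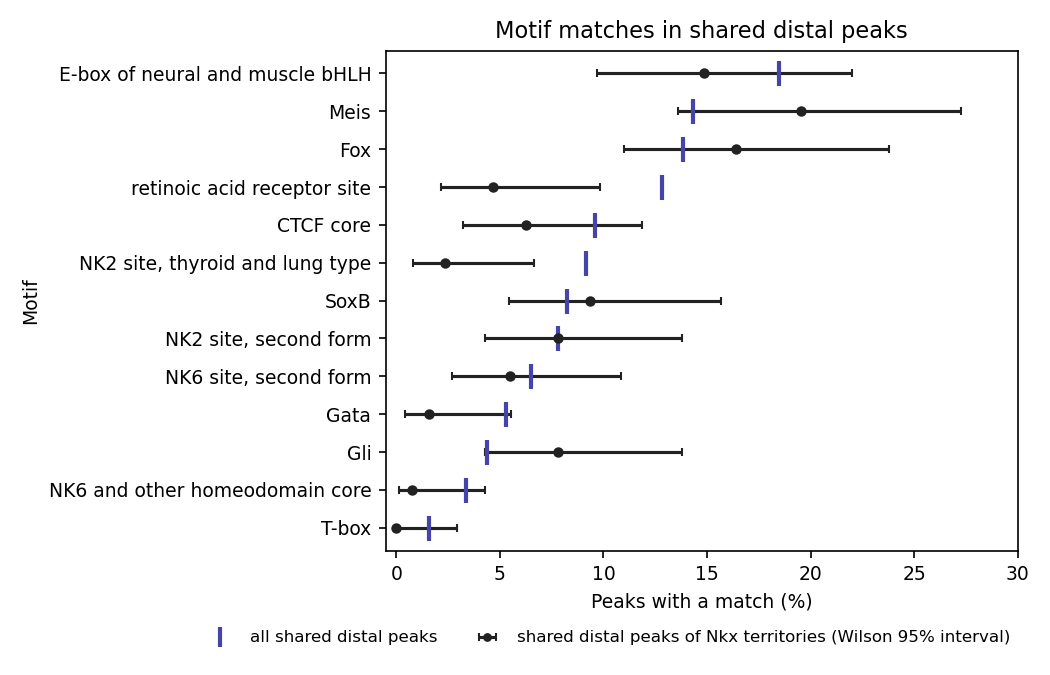
Share of peaks with a match (x axis, percent) for 13 motifs (y axis). Points are the 128 shared distal peaks of the Nkx territories with Wilson 95% intervals and vertical marks are all 124517 shared distal peaks; for the retinoic acid receptor site and the NK2 site of thyroid and lung type the marks lie to the right of the intervals, and for Gli the point (7.81%) lies to the right of the mark (4.37%).

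Genes that act with the Nkx factors were described from 8 lists. A promoter peak in both replicates was found at 70.3% of all genes, at 96.0% in CG class 6 and at 99.4% in CG class 10. The counts below were not matched for CG, so a complete list is not by itself a trait of these genes. Of the hedgehog signal and ventral neural tube genes, 13 of 14, among them Shh, Ptch1 and Smo, had a promoter peak in both replicates, and Dbx2 had none. The lists for the heart (9 of 9, with Gata4, Gata6 and Tbx5), for thyroid, lung and forebrain (8 of 8, with Pax8, Hhex and Foxe1), for the sclerotome (8 of 8, with Pax1, Pax9 and Sox9), for spleen and gut wall (6 of 6, with Tlx1 and Wt1) and for oligodendrocytes (5 of 5, with Olig1, Olig2 and Sox10) were complete. The pancreas list had 7 of 9, with Pdx1, Neurod1 and Neurog3, and lacked Pax4 and, in replicate 1, Ptf1a. Among other Nk-type genes, Nkx1-1 and Nkx1-2 had one in both replicates and Nkx6-3 had none.

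A gap toward replicate 2 was also found at 6 of the 55 partner genes with 15 or more peaks over both lists. That is 10.9%, beside the 3.17% of all such territories. At least 2 times the peaks of replicate 1 were found at 3 of 8 pancreas genes with 15 or more peaks, which were Mnx1 (5 and 44 peaks), Pdx1 (4 and 21) and Ptf1a (11 and 38). It was found at 1 of 13 in the hedgehog and neural tube list, Pax6 (41 and 100), at 1 of 9 in the heart list, Gata4 (7 and 29), and at 1 of 6 in the spleen and gut list, Tlx1 (19 and 42). The forebrain, sclerotome and oligodendrocyte lists had 0. Of the genes beside Nkx2-2 and Nkx2-9, Pax1 had 52 and 71 peaks and Pax9 35 and 49, ratios of 1.37 and 1.40, so the neighbouring Pax territories did not reach the 2-fold gap of these Nkx genes.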

How the data were processed

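DNase-seq of 2 biological replicates of whole embryos gave 1 peak list and 1 hotspot list each. Per the labels and the text deposited with the files, each list was made by the authors from the mm10 alignments of its own replicate. The aligner, the caller and the read filters were not given in the sources used here. The peaks deposited by the authors carry a score of unknown construction. The hotspots deposited by the authors carry the −log10 of a q value, from 1.30 to a ceiling of 100. The files hold intervals and no reads, so the depth per sample is unknown.

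Territories, overlaps, sequence content and motif matches were computed with Python 3.11.15, numpy 2.4.6, pandas 2.3.3 and pysam 0.24.0 from the mm10 sequence and GENCODE M21, and figures with matplotlib 3.10.9. The code was tested on simulated data. Coordinates are 1-based, and distances run from the 5'-most TSS to the peak midpoint, except those to the nearest peak, which run to its edge. Intervals are Wilson 95%.

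Genes, lists, motifs and measures were chosen with earlier results of these data known. The genes named are the 10 Nkx genes, their neighbours and linked Pax and Foxa genes, and up to 3 genes with and 3 without a promoter peak from each list. Some genes that this rule selects are left out here. Peaks named under the rule are the nearest and best-ranked shared peak and the widest hotspot intersection of each territory. Chosen after seeing the values were the other peaks named, the genes named for a replicate gap, the 2-fold, 15-peak, 20 kb and chain criteria, the longer Gli letters, and the printed sequences of the Nkx2-2 peak at +5.99 kb and of replicate 2 alone. Best-ranked peaks not printed either overlap a UTR (Nkx2-4) or add nothing to the findings shown. No sample was left out. The alternatives tried were each replicate alone, the better-scoring 50% of each list, a 75 bp overlap, other promoter and distal distances, territories limited to 100 kb, hotspots at the ceiling, and peaks without repeat bases.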

Additional observations from a re-analysis of the deposited data

How the results depend on the processing

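The promoter count stayed between 7 and 10 of 10 under every alternative run. The 152 shared peaks became 100 with the better-scoring 50% of each list, and counting 1 replicate alone gave 189 to 291. The median distal density of 8.20 per 100 kb ranged from 10.1 to 17.4 with 1 replicate left out, and hotspot coverage of 3.12% from 3.57 to 6.60%, higher in part by construction, since a single list needs no partner. Stricter settings lowered them, to a density of 6.43 with the better-scoring 50% and 6.12 beyond 2500 bp, and to a coverage of 1.28% with hotspots at the ceiling alone. The count of 5 genes with at least 2 times the peaks in replicate 2 was 3 with the better-scoring 50%, an alternative chosen after seeing the data; the cause was not tested. It stayed at 5 with hotspot bases and with a threshold of 1.5 times. The share of all territories is not given here for these 3 settings. A looser threshold also lets more territories pass, so an unchanged 5 does not show that the gap is robust. The density of Nkx6-1, 12.6, was 18.0 with territories limited to 100 kb and 6.74 with the better-scoring 50%, which also moved Nkx6-2 from 12.2 to 6.11. Set against the median of all genes under the same alternative, 8 to 10 of the 10 genes lay above it. With 2 libraries of unknown depth, a missing peak does not show closed chromatin. No paired analysis was possible because there is only 1 group of samples.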
